A study of Salmo salar with 34 samples.

Results

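Male and female Atlantic salmon (Salmo salar) were compared by gene expression in the midgut, on the 22 of 34 arrays that were scanned on the later of 2 days. An array entered if its scanner header gave that day, and sex was taken from the sample labels. The arrays came from 6 females and 16 males, 1 fish each. The 12 arrays of the earlier day were all from females and were left out of the comparison of the sexes. Post smolts were fed for 12 weeks in seawater tanks. Their diets held trace minerals in inorganic (IM) or organic (OM) form, each at a level labelled high or low. The methods add that all fish went through repeated handling stress and then, in the last weeks, suboptimal oxygen saturation. At high IM there were 2 females and 2 males, at high OM 1 and 6, at low IM 1 and 3, and at low OM 2 and 5. Which of the study's diet levels these names stand for is not given in the labels. Tanks were not modelled, so p-values measure the spread between these fish, some of which may have shared a tank.

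The midgut of salmon takes up minerals, amino acids and lipids, and it holds absorptive enterocytes, mucus-secreting goblet cells and immune cells. In salmon the sex of a fish is set by a master gene on the male's sex-determining region, which acts in the gonad, and outside the gonad most genes are transcribed in both sexes. The comparison asks whether transcript levels in the gut differ between them.

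The array carries 14841 probes with 1 spot each. The files give the identifier of each probe and pair it with no gene name, and 0 of them matched a table of RefSeq salmon genes. The results are therefore per probe. Neither the sex nor the tissue in the labels could be checked against a marker gene, and groups of genes could not be counted. A level is given below as the log2 of the spot's processed signal minus that of the array's own 75th percentile, so 0 is the signal that 75% of the probes on that array do not exceed. A difference is male minus female on this scale, from a limma fit with the diet group as a term. A probe was tested if the scanner software called it well above background in 6 or more of the 22 fish, the number of females, which left 12601. In bulk tissue, more cells of a type and more RNA per cell cannot be told apart.

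Signal strength overlapped between the arrays of the sexes. The 75th percentile was between 128 and 435 intensity units in females (mean 272 ± 112, SD, n = 6) and between 94.6 and 863 in males (330.1 ± 187, SD, n = 16). The log2 difference of 0.19 was within the spread between fish (two-sided exact permutation test over 74613 regroupings, p = 0.609, adjusted p = 0.857 over 3 measures). The number of probes well above the background was 10977 ± 881 in females and 11807 ± 980 in males. Males had more on average, but the groups overlapped (exact permutation p = 0.0855, adjusted p = 0.257). The spread of log2 signal across probes was 2.93 ± 0.16 in females and 2.95 ± 0.18 in males (exact permutation p = 0.857, adjusted p = 0.857).

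The arrays did not separate by sex in their overall profile. The first 2 principal components, over the 11527 probes with a value on every array, carried 29.2% and 16.2% of the variance. On the first component low organic male 6 stood far from the rest, with a score of 153, and high organic female 5 followed at 75.8. On the second, low organic males 2, 3 and 5 had the lowest scores, -88.9, -75.2 and -47.6. Low organic males 4 and 6 had 13.4 and -5.3. Low organic male 6 was also the array least like the others, with a median Pearson r of 0.806 to them. Fish of opposite sex on the same diet had a median r of 0.918 over 23 pairs, against 0.947 over 29 pairs of males on the same diet. On different diets the order was the other way, with 0.942 over 73 pairs of opposite sex and 0.918 over 91 pairs of males. The pairs share arrays, and all r are across probes, which are not independent. No 2 arrays held the same values.

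**Figure D1:**
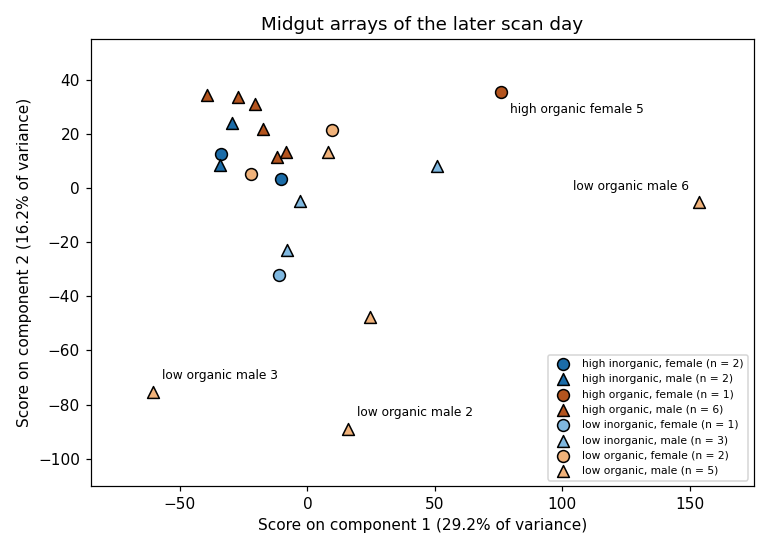
Scores of the 22 arrays on the first 2 principal components of log2 signal. Circles are females, triangles males, and colours the 4 diet groups. The females other than high organic female 5 lie among the males. That female has the second highest score on the first component, 75.8, and low organic male 6, with 153, stands apart from every other array.

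The median share of a probe's variance that sex took, after diet, was 1.41% with 1 degree of freedom. The diet group after sex took a median of 16.5% with 3 degrees of freedom, or 5.48% per degree of freedom. An equal split of the variance over the 21 degrees of freedom would give each 4.76%. That value is an average, while the shares of sex and diet are medians over probes, so neither can be read against it. With different degrees of freedom, the shares of sex and diet are not comparable term by term either. The median SD of a probe within diet groups was 0.40 in females, from 2 degrees of freedom, and 0.56 in males, from 12, and without low organic male 6 the latter was 0.51. The female value rests on high IM and low OM, the only diets with 2 females. A median SD from few degrees of freedom runs low, so these values do not show that males vary more.

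No probe passed the adjusted test between the sexes. With Benjamini-Hochberg adjustment over all 12601 probes, 0 (0%) had an adjusted limma p under 0.05, and the smallest adjusted p was 0.9997. Without low organic male 6, the array that stood apart, 0 passed as well, but the smallest adjusted limma p was 0.147, 429 probes had an unadjusted p under 0.05, and the count at the criteria below was 201. At an unadjusted p under 0.05 there were 162 probes, 1.29% of those tested, where 630 would be 5% of them. Low p-values were thus fewer than an even spread would give, and 6.18% of the probes had p from 0.95 to 1. The p-values of this fit may be too large, and the shortfall does not show that the sexes are alike. Its cause was not tested. The smallest unadjusted limma p was 0.00102. The count of 162 depended on the scaling: it was 718 with the normexp background correction and 527 with the authors' processed values. In both of those fits the median probe was itself shifted, as given below. At the study's criteria for a differentially expressed gene, a fold change above 1.75 and p under 0.05, 72 probes passed (0.571%), with 23 higher and 49 lower in males. The division by direction depended on the scaling: with quantile normalization 75 were higher and 39 lower, and with the authors' processed values 4 and 88. The normexp background correction shifted the median probe by -0.29 on the log2 scale and gave 7 higher and 38 lower, but 59 and 1 once changes were taken relative to that shift. In the authors' values the median probe was shifted by -0.14, and relative to that shift 10 were higher and 33 lower.

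The size of the differences was small for most probes. The median difference was -0.02, its quartiles were -0.18 and 0.11, and the median size was 0.14. The median standard error was 0.26, and a 95% confidence interval reached a median of 0.55 to either side. For 7208 probes (57.2%) the whole interval lay within a 1.75-fold difference in either direction, and for 8792 (69.8%) within 2-fold. For the others the arrays could not show whether a difference of that size was present. A difference above 1.75-fold was estimated for 268 probes, 91 higher and 177 lower in males, of which 72 passed the unadjusted p.

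**Figure D2:**
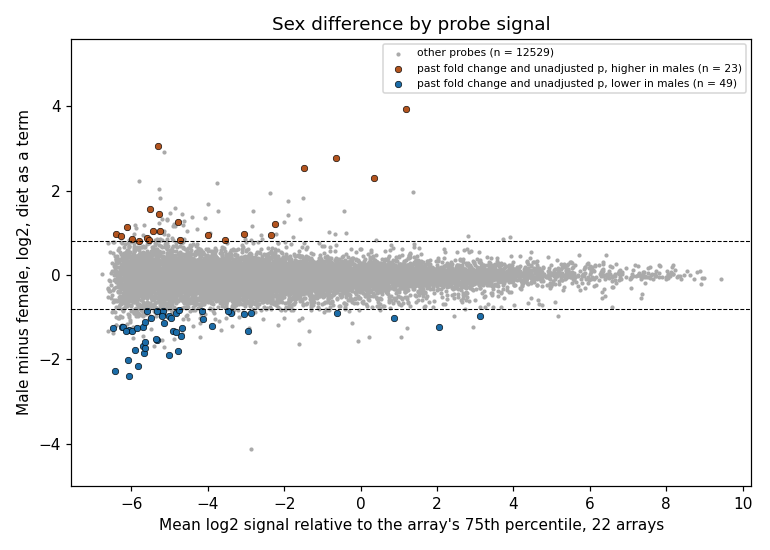
Male minus female difference (log2, diet as a term) against the mean log2 signal of each of the 12601 probes. Dashed lines mark 1.75-fold, and coloured points are the 23 probes higher and 49 lower in males at the fold change and unadjusted p criteria. Most of the coloured points lie among dim probes.

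Precision followed the brightness of a probe. For the 8901 probes detected, that is well above background, on all 22 arrays, the median size of the difference was 0.11, the interval reached 0.45 to either side, and 74.7% had it within 1.75-fold. Only 10 of them met the criteria, 2 higher and 8 lower in males, or 0.112%. Of the 2517 probes detected on 12 to 21 arrays, 18.4% had the interval within 1.75-fold and 33 met the criteria (1.31%). Of the 1183 probes detected on 6 to 11 arrays, the shares were 8.45% and 2.45%, the latter being 29 probes. Most probes that met the criteria were thus not detected in some of the fish.

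Of the 11527 probes with a value on every array, 0 (0%) had all males above all females or the reverse. Detection did not divide the sexes either: no probe was well above the background in all 6 females and no male, or in all 16 males and no female. The probe nearest to the latter was detected in 13 males and no female. In the other direction, the highest number among probes with no male was 4 females. Of all 14841 probes on the array, 1381 were detected in at least 1 male and no female, and 44 in at least 1 female and no male. These counts include probes too dim to be tested, and they also reflect the unequal numbers of fish.

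The probes leading the list, taken as the 2 with the largest difference in each direction among those past the criteria and detected in 50% or more of the fish of each sex, all had an adjusted limma p of 0.9997. Probe Ssa#GRASP223672662 took either a high or a low level in single fish, with no value between -3.12 and 3.00. Its level in females ranged from -5.21 to 5.03 (median -4.27), and in males from -8.09 to 5.69 (median 3.61). It was above the array's 75th percentile in 2 of 5 females and 11 of 14 males. The spots of 1 female and 2 males were marked as outliers and left out. The difference was 3.93 (standard error 1.81, 95% interval 0.10 to 7.77), and in 20 of 34 other settings it no longer passed the unadjusted threshold. Both the high and the low state occurred in both sexes. In males the low state was seen only at low OM, in low organic males 4, 5 and 6, while low organic male 3 was high. In females it was seen at high IM, high OM and low OM. Within diet groups the difference was 3.67 at high IM, 9.08 at high OM, -0.66 at low IM and 2.58 at low OM. All but the first rest on 1 female, since the spot of low organic female 6 was the outlier. In low organic female 5 the probe was not well above the background.

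Probe Ssa#GRASP209155627 ranged from -4.63 to -0.17 in females (median -2.40) and from -5.42 to 2.95 in males (median 0.85). In 10 of 16 males it was above the highest female, and 1 male was below the lowest. The difference was 2.78 (standard error 1.09, interval 0.51 to 5.05). It was positive in the 4 diet groups, from 0.18 at low IM to 3.84 at low OM. With the slide as a fixed block beside diet the difference was 1.01 and no longer passed the unadjusted threshold. With the slide as a random block it was 2.85 and passed, but that fit hardly adjusted for the slide (estimated correlation -0.035).

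Probe Ssa#DW537935 was lower in males. Its level ranged from -5.04 to -2.16 in females (median -3.49) and from -6.98 to -1.90 in males (median -5.30), and 11 of 16 males were below the lowest female while 1 was above the highest. The difference was -1.79 (standard error 0.53, interval -2.91 to -0.67), and -1.85 with the slide as a fixed block beside diet. It had the same direction in the 4 diet groups, from -0.82 at low OM to -2.98 at low IM. The named probes were picked for their difference over all diets in these same fish, so like signs within diets are partly built in. The probe was well above the background in 5 females and 11 males.

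Probe Omy#CA369063 ranged from -6.82 to -2.81 in females (median -4.77) and from -8.69 to -3.55 in males (median -6.28), with 5 males below the lowest female. It was above the background in 3 females and 8 males. The difference was -1.68 (standard error 0.64, interval -3.03 to -0.34). It was negative in the 4 diet groups, from -0.97 at low IM to -2.22 at high OM. With the slide as a fixed block beside diet it turned to 0.26. With the slide as a random block, which hardly adjusted for the slide, it was -1.78.

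**Figure D3:**
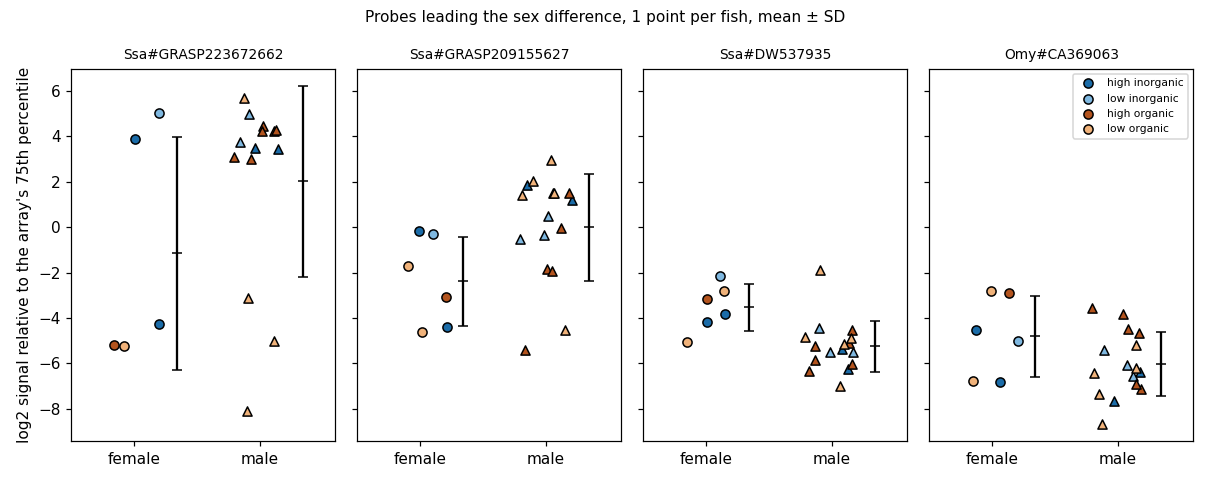
Log2 level (0 is the 75th percentile of the array), 1 point per fish, for the 4 probes leading the sex difference. Circles are females, triangles males, colours the diet groups, and bars the mean ± SD. The values of the sexes overlap for every probe, and the first probe has a gap between -3.12 and 3.00 that divides fish of both sexes.

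Slides could be separated from sex only in part. All 6 females lay on 2 slides, which also held 3 males, all at high OM, while the other 13 males lay on 3 slides with males only. With the slide as a fixed block, 258 probes met the fold change and p criteria, 74 higher and 184 lower, and 0 passed adjustment. The standard errors were 1.82 times as large in that fit. With the slide as a random block 86 met the criteria, 32 higher and 54 lower, and 0 passed adjustment. The estimated correlation between arrays of a slide was -0.035. That is near 0, so the random block hardly adjusted for the slide, and standard errors were 0.956 times those without it.

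Each diet group was also fitted on its own contrast, with the spread shared between groups. After adjustment 0 of 12589 probes (0%) differed between the sexes at high IM and 0 of 12494 (0%) at low IM, with 189 (1.5%) and 151 (1.21%) at an unadjusted limma p under 0.05. At high OM 1 of 12585 passed (0.00795%), with 1003 (7.97%) at the unadjusted p, and this contrast rests on high organic female 5, the only female of its diet and the array with the second highest score on the first component. At low OM 13 of 12595 passed (0.103%), 12 of them higher in males, and 1995 (15.8%) had an unadjusted limma p under 0.05, the highest share of the 4 diet groups. The 12, chosen by this same contrast, had differences from 1.26 to 3.26 at low OM and a median of 0.27 over the 4 diets together. The count at low OM rested on single fish. It was 0 without low organic female 5 or without low organic male 5, and 164 without low organic male 4.

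Between high IM and low OM, the sex difference was not shown to depend on the diet. Between these, the only groups with 2 females, it differed for 0 of 12583 probes (0%) after adjustment. The smallest adjusted limma p was 0.153. At an unadjusted limma p under 0.05 there were 1248 of the 12583, which is more than 5%, where the fit for sex had 1.29%. Over all 4 diet groups 2 of 12472 passed (0.016%), with a smallest adjusted p of 0.0419, a test in which 2 groups had a single female.

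More probes passed between the scan days than between the sexes. Among the 18 females alone, with diet as a term, the 6 of the later day were compared with the 12 of the earlier day, and 1469 of 11378 probes (12.9%) had an adjusted limma p under 0.05, with 979 higher and 490 lower on the later day. The balance of directions depended on the scaling, with 784 higher and 781 lower after quantile normalization and 623 and 807 in the authors' values. With normexp only 97 passed, 79 higher and 18 lower, and without low inorganic female 5 the count was 819. The median size of the difference was 0.32 over the 11378 probes tested for the day, against 0.14 over the 12601 tested for sex. The intervals reached a median of 0.53 and 0.55 to either side. The 2 sets of probes differ, so these medians are not over like probes. The day cannot be told apart from the slides or from what else differed between the 2 sets of females, since no slide was scanned on both days.

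**Figure D4:**
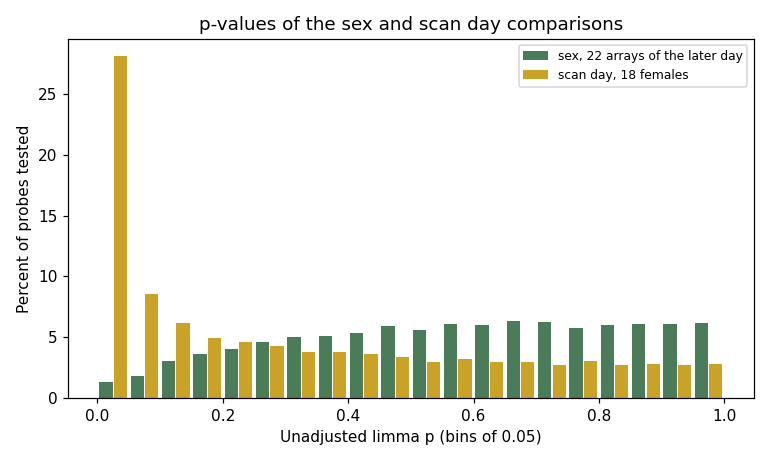
Percent of probes in each 0.05-wide bin of the unadjusted limma p, for sex on the later day (22 arrays) and for the scan day among females (18 arrays). The lowest bin holds 1.29% of the probes for sex and 28.1% for the day.

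The probes called between the sexes over both days, where every earlier-day array was from a female, were followed onto the later day. With all 34 arrays and no term for the day, 632 of 12885 probes (4.9%) passed adjustment, 481 higher and 151 lower in males. With the day as a block 0 (0%) did, with 182 at an unadjusted limma p under 0.05. The 481 had a median difference of 0.80 over 34 arrays and 0.11 on the later day, where 388 had the same sign and 12 an unadjusted limma p under 0.05. The 151 had a median of -0.65 over 34 arrays. On the later day 150 of them were tested, with a median of -0.19, the same sign for 139 and 5 under that p. Both lists were chosen for their 34-array values, which include the 22 later-day arrays. Smaller values, like signs and p-values under 0.05 on the later day are thus partly built in. For comparison, the median over all probes tested on the later day was -0.02, and 1.29% of them had an unadjusted limma p under 0.05. Between the days among females, the same lists had medians of 0.90 and -0.64, and all 457 and 149 members tested there had the sign of the 34-array difference. These fits share samples, since the earlier-day females enter both the 34-array difference and the day difference, so the likeness of their signs is partly fixed by the design.

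**Figure D5:**
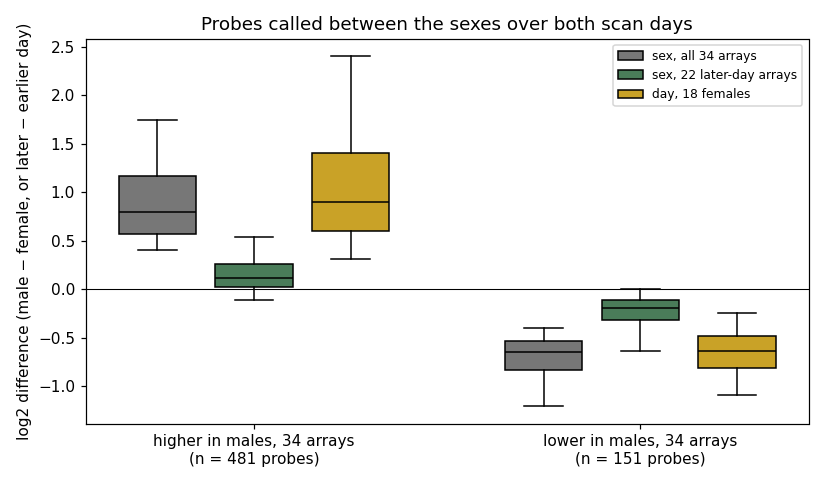
Differences (log2) of the probes called between the sexes over all 34 arrays, 481 higher and 151 lower in males, in 3 fits that share samples: sex over 34 arrays, sex on the 22 later-day arrays, and later minus earlier day in 18 females. Boxes are quartiles with the median, and whiskers reach the 5th and 95th percentiles of the probes. The later-day sex difference is the nearest to 0 in both directions, with medians of 0.11 and -0.19.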

How the data were processed

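Midgut RNA was labelled with Cy3 and hybridised to one-colour oligonucleotide arrays, 1 fish per array. The authors deposited scanner files with the intensity of each spot from Feature Extraction 12.0.1.1, in which the processed signal is background-subtracted and not scaled between arrays. A table of processed intensity values was also deposited by the authors and served as an alternative.

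Processed signals were put on the log2 scale and each array was centred on its own 75th percentile. Control spots and 2120 spots marked as outliers were left out, and 0 spots were saturated. Kept probes were called above background in 6 or more of the 22 fish. Sex and diet group were the terms of a linear model (limma 3.58.1, R 4.3.3), and p-values were adjusted by the Benjamini-Hochberg method over all probes tested. The number and the signal of the arrays limit precision.

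Named probes were the 2 leading in each direction by size among those past the study's fold change and p criteria and called above background on 50% or more of the arrays of each sex. The arrays, lists and tests were chosen with earlier results of these data known. The marker lists and functional groups planned were not run, since no file gives the probes' genes. The sex contrast within low OM was added with the data in view, as were the fit without 2 arrays that stood apart, the fit within 1 slide and the test over all 4 diets. The alternatives were normexp with an offset of 50, run on the median brightness, quantile normalization, the authors' values, no filter, probes bright on all arrays, the slide as a fixed or random block, the fish number as a block, no diet term, no moderation, all 34 arrays with the day as a block, and each array left out.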

Additional observations from a re-analysis of the deposited data

Results flagged for a closer look

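Of 27 groups of 4 to 10 fish screened for a fish far from the rest of its group, 1 was picked out, and chance alone picks about 1 in 20. It was the level of probe Ssa#GRASP209155627 in low organic males. Low organic male 4 had a log2 signal of -4.51 relative to its 75th percentile, while the next lowest of the 5 males had 1.42, a gap of 0.795 of the whole range.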

How the results depend on the processing

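No probe passed the adjusted p for sex in any of the 35 alternatives run, and with 1 array left out 120 to 429 probes had an unadjusted limma p under 0.05. The count at the fold change and p criteria, 72 of 12601, became 45 with normexp and 114 with quantile normalization. With other sets of probes it was 369 of 14841 with no filter and 11 of 8901 with probes bright on all arrays. With the slide as a block it was 258, and without low organic male 6 and high organic female 5 together 172. Within 1 slide it was 948 of 12599. That fit had no diet term, both its males were at high OM, and 3 of its 4 females were on other diets. With 1 array left out it ran from 62 to 201. The highest count was without low organic male 6 (19 higher, 182 lower), and it was 166 without high organic female 5 (97 higher, 69 lower) and 118 without low inorganic female 5. The adjusted count at low OM, 13, became 0 with normexp and 5 with quantile normalization, and 0 to 164 with 1 array left out. The count for the difference between diets was 0 to 1 with 1 array left out and 2 over all 4 diets. The scan day count among females, 1469, became 97 with normexp and 2381 with the slide as a random block, and 819 to 1728 with 1 array left out. The cause of these shifts was not tested. Probe Omy#CA369063 turned to 0.26 with the slide as a fixed block and 0.27 within 1 slide. It was -1.78 with the slide as a random block, which hardly adjusted for the slide. The difference in the 75th percentile was -0.0054 without low organic female 5, and otherwise up to 0.35. That in the spread across probes ran from -0.0264 to 0.0581 with 1 array left out, and that in detected probes from 610 to 1092, the latter without high organic female 5 (exact permutation p = 0.0335). Residuals of the 4 same-numbered pairs within a diet had r from -0.584 to -0.0923. Residuals from a small diet group lean towards negative r, so these values cannot show whether fish numbers pair the sexes. With the replicate number as a block the estimated correlation was 0.057, 68 probes met the criteria and 0 passed adjustment. All 4 diet groups held both sexes, so keeping only such groups was no separate alternative.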
